A study of Mus musculus with 10 samples.

Results

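Interferon response genes were examined as a set of 37 members in the mouse neuroblastoma line Neuro-2a after depletion of the nuclear RNA-binding protein Sfpq. Members were the rows of the deposited files that map to 37 symbols, with the most abundant RefSeq row for a symbol with several, and all 37 were found among 23553 genes. By role they were 5 RNA sensors, 5 transcription factors and 27 induced effectors. Trim25, which acts on a sensor, was counted with the sensors. One group received an siRNA against Sfpq (Sfpq cells), and the other an siRNA against luciferase, which mouse cells lack (Luc cells). All groups shared the line, the RNAiMAX reagent, medium with 2% serum and a growth condition labelled as differentiated, and their strain label reads C57BL/6+C57BL/6J+CBA. Poly(A)-selected RNA came from 3 Sfpq and 3 Luc libraries, and RNA depleted of ribosomal RNA (rRNA) from 1 Sfpq and 1 Luc library. All cells were thus of 1 line and transfected, and no label says that replicates were separate cultures: each p-value then reflects only how these libraries vary, possibly for technical reasons.

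Cells sense viral RNA through helicases such as RIG-I and MDA5, whose signal passes through the adaptor Mavs and the kinase Tbk1 to the transcription factors Irf3 and Irf7 and leads to interferon secretion. Interferon binds receptors of the Ifnar and Ifngr type, the kinases Jak1, Jak2 and Tyk2 become active, and complexes that hold Stat2 and Irf9 bind the interferon-stimulated response element (ISRE). The gamma-activated site (GAS) is another element of interferon-responsive promoters. The induced products degrade or block viral RNA, attach the ubiquitin-like protein Isg15 to other proteins, attract leukocytes and load peptides for antigen presentation. Several of the sensors and transcription factors are themselves induced.

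Expression is given as RPKM (reads per kilobase, scaled to library size), which holds no read numbers, so depth in reads is unknown. From the step size of low values, the poly(A) libraries had between 0.628 (Sfpq replicate 1) and 1.28 (Luc replicate 3) times the depth of Luc replicate 1. Sfpq itself had 3.98, 4.75 and 6.47 RPKM in the Sfpq poly(A) libraries, against 56.8, 60.8 and 73.0 RPKM in the Luc poly(A) libraries. In rRNA-depleted RNA it had 4.43 RPKM in the Sfpq and 30.8 RPKM in the Luc library. These values are of the more abundant of 2 Sfpq rows, a noncoding transcript record. Of the Neuro-2a markers, 8 of 10 were found at 0.5 RPKM or more in at least 1 library, and the neurofilament genes Nefl and Nefm were at or near 0. All 9 macrophage and leukocyte markers found were below 0.5 RPKM in every library, with summed levels of 0 to 0.243 RPKM in Sfpq and 0.179 to 0.485 RPKM in Luc poly(A) libraries. Fibroblast markers summed to 0.793 to 1.23 RPKM in Sfpq and 0.839 to 1.11 RPKM in Luc poly(A) libraries, and glial markers to 1.46 to 1.77 RPKM in Sfpq and 1.56 to 1.72 RPKM in Luc poly(A) libraries, so the groups overlapped for both. Luc replicate 3 correlated least with its group (0.979 to 0.985 across genes).

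In poly(A) RNA more members rose than fell after Sfpq depletion, and those that fell were Isg15, Oasl1 and the chemokines Ccl5 and Cxcl10. The 3 Sfpq libraries lay above all Luc libraries for 19 of the 37 members and below them for 5, and 13 overlapped. Testing required an average of 0.5 RPKM or more across the 6 libraries, which 33 members met, and a gene was called at an adjusted p under 0.05 (limma on log2(RPKM + 0.5), adjusted over 11727 genes). Of the 33, 17 were higher, 4 were lower and 12 did not pass. Over all genes tested the background was 21.3% higher and 18.6% lower, against 51.5% and 12.1% of the tested members. The members were chosen with earlier results of these data known, so whether the set stands out was not tested. Of the 33, 18 had Sfpq libraries wholly above and 5 wholly below the Luc libraries (background 28.2% above and 24.7% below). Parp14 and Ifit2 passed the filter only through their Sfpq level, so that they had to differ; of the 31 others, 15 were higher. The members' median log2 fold change was 0.32, beside 0.05 for all genes tested. In such bulk RNA, a change in the number of cells that express a gene and a change in its RNA per cell cannot be told apart. With no filter on low values 13 of 37 members were higher and 1, Cxcl10, was lower, where the background was 7.82% higher and 7.62% lower. The calls that ended there were those of Parp12, Isg20, Adar, Psmb8, Tap1, Oasl1, Isg15 and Ccl5 (limma adjusted p between 0.0587 and 0.165), and Ifi35 gained one (limma adjusted p = 0.0348).

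**Figure D1:**
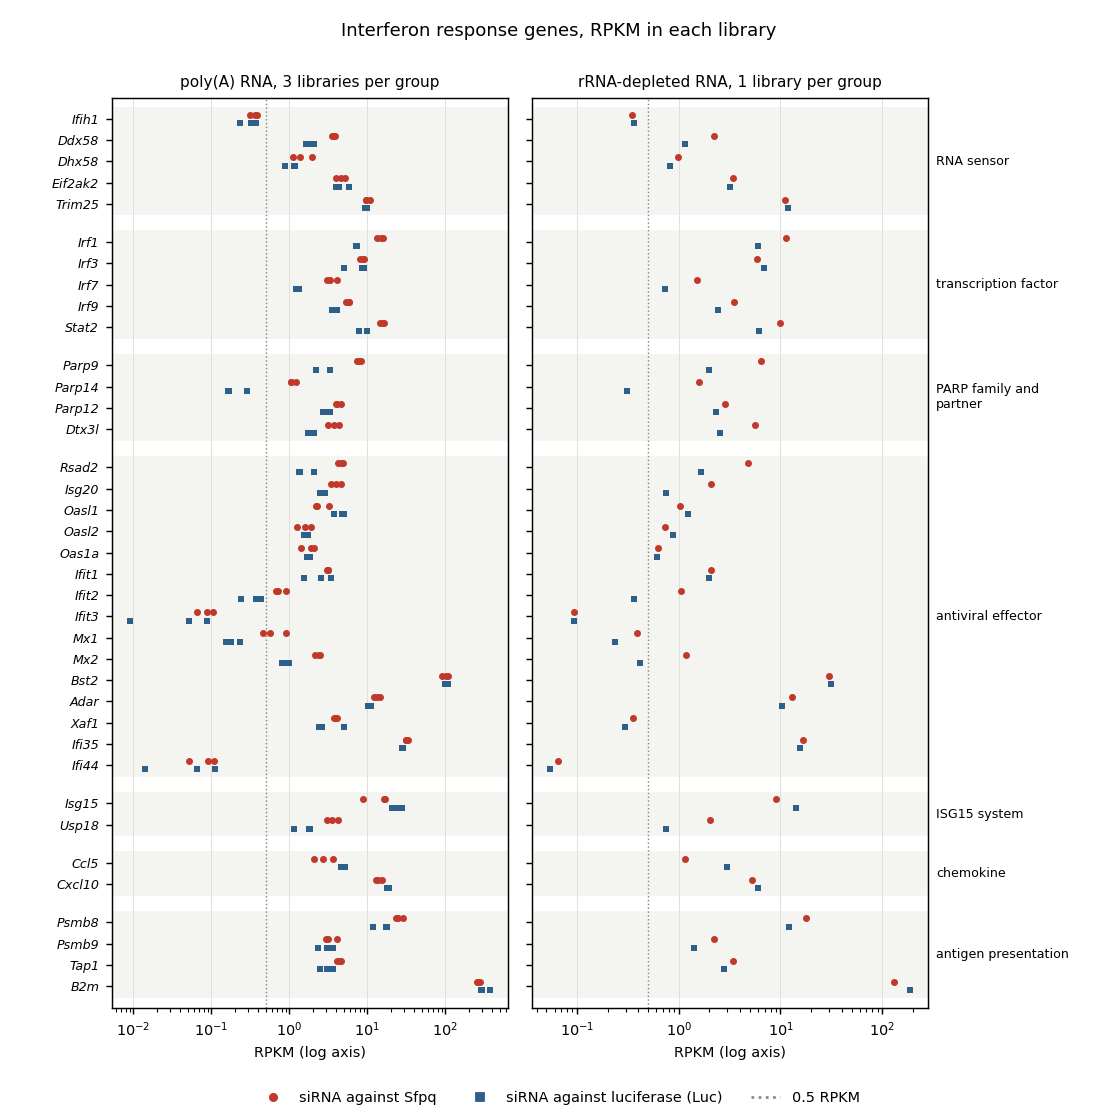
RPKM (log axis) of the 37 interferon response genes in each library, by role, with Sfpq libraries as circles and Luc libraries as squares; the dotted line marks 0.5 RPKM. In poly(A) RNA (left) the Sfpq points of Parp9, Parp14, Rsad2, Irf1, Irf7, Mx2 and Usp18 lie to the right of their Luc points, and those of Isg15, Oasl1, Ccl5 and Cxcl10 to the left.

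To show which of the changed genes carry the known response elements, the 250 bases before the start of each gene were searched on both strands for ISRE letters (GAAA, any 2 bases, GAAA) and GAS letters (TTCNNNGAA, which reads the same on both strands) in RefSeq promoters of GRCm38.p6, a table that held 30 of the 37 members. ISRE letters stood in the window of 9 of these 30 genes (30.0%), beside 3.46% of 27025 genes in all, and GAS letters in 7 (23.3%), beside 8.13%. The 9 with ISRE letters held genes of every outcome: Stat2 and Rsad2 were higher, Isg15 and Cxcl10 were lower, and B2m, Bst2, Ifit1, Oas1a and Ifit3 were not called or not tested. Thus 2 of 13 higher members and 2 of 3 lower members with a window had them. GAS letters stood in a window of 4 of the 13 higher and 0 of the 3 lower members. The members with no window were Parp9, Parp14, Mx2 and Usp18 (higher), Ccl5 (lower), Dhx58 (not called) and Mx1 (not tested). These matches describe the windows only, and in the Isg15 window 3 ISRE matches overlap. The windows of the 4 called genes with ISRE letters (capitals mark those letters) and the upstream window of Irf1 (capitals mark GAS letters) read, 5′ to 3′ on the strand of the gene:
Stat2, chr10:128270248-128270497, plus strand: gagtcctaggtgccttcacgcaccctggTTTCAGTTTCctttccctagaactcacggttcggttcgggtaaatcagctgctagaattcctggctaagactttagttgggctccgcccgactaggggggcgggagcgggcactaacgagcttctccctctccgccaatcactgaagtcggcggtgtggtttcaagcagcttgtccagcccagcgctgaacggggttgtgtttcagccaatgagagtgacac
Rsad2, chr12:26456453-26456702, minus strand: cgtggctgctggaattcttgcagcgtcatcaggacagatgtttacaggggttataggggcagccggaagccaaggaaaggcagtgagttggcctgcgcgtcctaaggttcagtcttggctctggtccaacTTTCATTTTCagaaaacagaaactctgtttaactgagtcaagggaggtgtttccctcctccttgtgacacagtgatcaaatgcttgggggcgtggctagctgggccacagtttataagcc
Isg15, chr4:156200819-156201068, minus strand: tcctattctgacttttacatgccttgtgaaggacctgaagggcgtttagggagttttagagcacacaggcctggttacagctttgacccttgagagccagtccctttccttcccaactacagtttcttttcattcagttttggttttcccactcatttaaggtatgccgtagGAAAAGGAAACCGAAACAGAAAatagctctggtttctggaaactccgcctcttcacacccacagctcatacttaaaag
Cxcl10, chr5:92348890-92349139, minus strand: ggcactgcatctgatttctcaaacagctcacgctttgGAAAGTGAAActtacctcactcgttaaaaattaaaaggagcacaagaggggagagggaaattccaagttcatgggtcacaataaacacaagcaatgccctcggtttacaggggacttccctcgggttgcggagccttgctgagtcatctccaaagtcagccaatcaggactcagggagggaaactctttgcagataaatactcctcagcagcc
Irf1, chr11:53769764-53770013, plus strand: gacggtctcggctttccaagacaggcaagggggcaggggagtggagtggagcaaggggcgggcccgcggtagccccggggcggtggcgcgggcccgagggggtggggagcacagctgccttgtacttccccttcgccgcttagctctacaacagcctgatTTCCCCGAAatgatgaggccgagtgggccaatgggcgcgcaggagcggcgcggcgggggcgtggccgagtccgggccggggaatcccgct

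The RNA sensors differed among themselves. Ddx58, which encodes RIG-I, a sensor of RNA with a 5′ triphosphate, had 3.70, 3.93 and 3.56 RPKM in Sfpq libraries, against 1.82, 1.64 and 2.12 RPKM in Luc libraries. It was the sensor whose groups did not overlap, and it was higher by 0.85 on the log2 scale (SE 0.12, limma adjusted p = 0.000646), which is a 2.00-fold ratio of the means. Dhx58 (LGP2), a regulator of the other helicases, had 1.12, 1.95 and 1.40 RPKM in Sfpq libraries, against 0.891, 1.19 and 1.14 RPKM in Luc libraries, which overlapped (log2 fold change 0.32, limma adjusted p = 0.159). Eif2ak2 (PKR), the kinase that stops translation on double-stranded RNA, averaged 4.61 ± 0.593 RPKM in Sfpq and 4.70 ± 0.940 RPKM in Luc libraries (SD, n = 3 each). Trim25, a ubiquitin ligase that acts on RIG-I, averaged 10.0 ± 0.622 RPKM in Sfpq and 9.63 ± 0.346 RPKM in Luc libraries (SD, n = 3 each), and neither of these genes passed the test (limma adjusted p = 0.939 for Eif2ak2 and 0.683 for Trim25). Ifih1 (MDA5), a sensor of long double-stranded RNA, stayed under the filter, with 0.313 to 0.385 RPKM in Sfpq and 0.237 to 0.376 RPKM in Luc libraries.

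Among the transcription factors, 4 of 5 were higher. Irf7, the amplifier of the type I interferon response, had 3.31, 4.07 and 3.04 RPKM in Sfpq libraries, against 1.24, 1.36 and 1.36 RPKM in Luc libraries. All Sfpq libraries stood well above all Luc libraries, with a log2 fold change of 1.12 (SE 0.13, limma adjusted p = 0.000189). Irf1, an interferon-induced activator whose GAS letters are shown above, had 13.5, 16.1 and 15.1 RPKM in Sfpq libraries, against 7.19, 7.38 and 7.32 RPKM in Luc libraries (0.98, SE 0.11, limma adjusted p = 0.000123). The Luc values of Irf1 were almost alike, and the lowest Sfpq value lay far above them. Stat2 had 15.8, 16.5 and 14.7 RPKM in Sfpq libraries, against 10.1, 9.92 and 7.87 RPKM in Luc libraries (0.73, SE 0.12, limma adjusted p = 0.00148). Its DNA-binding partner Irf9 had 5.81, 5.90 and 5.39 RPKM in Sfpq libraries, against 3.91, 3.51 and 4.16 RPKM in Luc libraries (0.51, SE 0.11, limma adjusted p = 0.00608). The groups did not overlap for either gene, so the mRNAs of both partners were higher. Irf3, the factor activated directly by the sensors, had 8.77, 9.13 and 8.04 RPKM in Sfpq libraries, against 8.62, 9.16 and 5.04 RPKM in Luc libraries, where Luc replicate 3 was the low value. It did not pass (0.21, SE 0.20, limma adjusted p = 0.412), and without Luc replicate 3 the log2 fold change was -0.04 (limma adjusted p = 0.747).

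All 4 members of the PARP group were higher, though Parp14 passed the filter only through its Sfpq level. Of the 4, 3 are neighbours on mouse chromosome 16 in the order Parp14, Dtx3l, Parp9, with no protein-coding gene between them. Parp9, an ADP-ribosyltransferase family protein that works with the ubiquitin ligase Dtx3l, had 7.34, 8.29 and 7.86 RPKM in Sfpq libraries, against 2.19, 2.23 and 3.30 RPKM in Luc libraries. All its Sfpq libraries lay far above all its Luc libraries (log2 fold change 1.46, SE 0.15, limma adjusted p = 9.27e-05), with a ratio of means of 3.04. Dtx3l had 3.17, 4.30 and 3.81 RPKM in Sfpq libraries, against 1.76, 2.10 and 1.99 RPKM in Luc libraries (0.79, SE 0.13, limma adjusted p = 0.00162). Parp14, an ADP-ribosyltransferase, had 1.04, 1.24 and 1.05 RPKM in Sfpq libraries, against 0.171, 0.165 and 0.286 RPKM in Luc libraries. Its ratio of means was 5.36, while the fold change on the log2(RPKM + 0.5) scale was 1.19 (SE 0.13, limma adjusted p = 0.000143), because the added 0.5 weighs on low values. Parp12, which lies on another chromosome, had 4.58, 3.99 and 4.06 RPKM in Sfpq libraries, against 3.16, 2.73 and 3.34 RPKM in Luc libraries. That smaller difference (0.40, SE 0.12, limma adjusted p = 0.0254) lost its call when any 1 library other than Luc replicate 3 was left out, with log2 fold changes of 0.33 to 0.43 and limma adjusted p between 0.0640 and 0.0787.

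Antiviral effectors split, with 5 of 12 tested members higher, 1 lower and 6 not past the test. Ifit2, among the 5, passed the filter only through its Sfpq level. Rsad2 (viperin), a radical enzyme that makes a chain-terminating nucleotide, had 4.59, 4.84 and 4.23 RPKM in Sfpq libraries, against 1.32, 1.36 and 2.07 RPKM in Luc libraries (1.29, SE 0.15, limma adjusted p = 0.000207). Mx2, of the dynamin-like antiviral GTPases, had 2.47, 2.17 and 2.43 RPKM in Sfpq libraries, against 0.819, 0.921 and 1.00 RPKM in Luc libraries (1.02, SE 0.12, limma adjusted p = 0.000206). Both genes kept wide gaps between the groups. Mx1 had 0.463, 0.912 and 0.562 RPKM in Sfpq libraries, against 0.153, 0.235 and 0.180 RPKM in Luc libraries; it was under the filter, and with no filter its log2 fold change of 0.71 just missed the threshold (SE 0.16, limma adjusted p = 0.0506). The rows for Mx1 and Mx2 are noncoding transcript records.

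Ifit2, of the family that binds viral RNA ends, had 0.716, 0.681 and 0.903 RPKM in Sfpq libraries, against 0.439, 0.239 and 0.377 RPKM in Luc libraries (0.58, SE 0.14, limma adjusted p = 0.0113). Its relative Ifit1 had 3.19, 3.05 and 3.12 RPKM in Sfpq libraries, against 2.60, 1.56 and 3.46 RPKM in Luc libraries, so the Luc libraries spread on both sides of the Sfpq libraries (0.30, limma adjusted p = 0.274); without Luc replicate 3 it passed (0.52, limma adjusted p = 0.0173). Ifit3 was near 0, with at most 0.106 RPKM in Sfpq and 0.0892 RPKM in Luc libraries, although it is the next protein-coding gene to Ifit2 on chromosome 19. Isg20, an exonuclease, averaged 4.05 ± 0.590 RPKM in Sfpq and 2.74 ± 0.237 RPKM in Luc libraries (SD, n = 3 each; 0.48, SE 0.13, limma adjusted p = 0.0170), a call that ended without Sfpq replicate 2 (0.48, limma adjusted p = 0.0629) or 3 (0.39, limma adjusted p = 0.0870). Adar, the editor of double-stranded RNA, averaged 13.4 ± 1.25 RPKM in Sfpq and 10.6 ± 0.475 RPKM in Luc libraries (SD, n = 3 each; 0.32, SE 0.11, limma adjusted p = 0.0421). The Adar call ended without Sfpq replicate 2 (0.26) or 3 (0.31) or Luc replicate 1 (0.30) or 2 (0.35), with limma adjusted p between 0.0503 and 0.181.

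Of the 3 oligoadenylate synthetase family members, Oasl1 fell and the other two did not pass. Oasl1, which restrains translation of Irf7 mRNA in mouse cells, had 2.26, 3.25 and 2.24 RPKM in Sfpq libraries, against 5.08, 4.80 and 3.72 RPKM in Luc libraries. All its Sfpq libraries lay below all Luc libraries (log2 fold change -0.71, SE 0.16, limma adjusted p = 0.00763). Its neighbour Oasl2 averaged 1.60 ± 0.336 RPKM in Sfpq and 1.66 ± 0.0943 RPKM in Luc libraries, and Oas1a averaged 1.80 ± 0.357 RPKM in Sfpq and 1.78 ± 0.0782 RPKM in Luc libraries (SD, n = 3 each), with overlapping groups for both (limma adjusted p = 0.777 for Oasl2 and 0.981 for Oas1a). These genes are close relatives, so reads that match several of them may have been divided between their rows. Bst2 (tetherin), which holds virions at the cell surface and was the second most abundant member after B2m, had 90.4, 102 and 109 RPKM in Sfpq libraries, against 101, 109 and 99.9 RPKM in Luc libraries. Ifi35 stood at 31.5, 33.6 and 31.4 RPKM in Sfpq libraries, against 28.9, 28.2 and 28.6 RPKM in Luc libraries, so the groups did not overlap, but the small difference did not pass (0.17, SE 0.09, limma adjusted p = 0.166). Xaf1, a pro-apoptotic protein gene, had 3.87, 4.15 and 3.82 RPKM in Sfpq libraries, against 2.61, 2.45 and 5.09 RPKM in Luc libraries. Luc replicate 3 was the highest Xaf1 value of all 6, and without it the gene passed as higher (0.55, limma adjusted p = 0.00134). Ifi44 had at most 0.110 RPKM in Sfpq and 0.112 RPKM in Luc libraries.

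The ISG15 system moved in opposite directions. Isg15, the ubiquitin-like modifier that is secreted as well as attached to proteins, had 8.96, 17.0 and 16.4 RPKM in Sfpq libraries, against 21.0, 23.4 and 28.1 RPKM in Luc libraries. Every Sfpq library was below every Luc library, with Sfpq replicate 1 lowest (log2 fold change -0.80, SE 0.22, limma adjusted p = 0.0191); without that replicate the fold change was -0.51 (limma adjusted p = 0.0316). Usp18, the protease that removes Isg15 from proteins and blocks the interferon receptor, had 4.23, 3.50 and 3.03 RPKM in Sfpq libraries, against 1.82, 1.17 and 1.83 RPKM in Luc libraries. Its groups were apart in the other direction (0.96, SE 0.17, limma adjusted p = 0.00194). Of the other enzymes of this system, Uba7, which activates Isg15, had 2.35, 2.06 and 2.16 RPKM in Sfpq libraries, against 0.483, 0.493 and 0.410 RPKM in Luc libraries (1.48, SE 0.12, limma adjusted p = 2.21e-05). Uba7 passed the filter only through its Sfpq level.

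Both chemokines fell. Ccl5, which attracts T cells and monocytes, had 2.72, 2.07 and 3.61 RPKM in Sfpq libraries, against 4.75, 4.58 and 5.25 RPKM in Luc libraries (log2 fold change -0.72, SE 0.17, limma adjusted p = 0.00809). Cxcl10, a ligand of Cxcr3, had 13.0, 15.5 and 13.6 RPKM in Sfpq libraries, against 18.2, 18.5 and 18.8 RPKM in Luc libraries (-0.39, SE 0.10, limma adjusted p = 0.0151). The groups did not overlap for either gene. The Cxcl10 call ended without Sfpq replicate 1 (-0.34), Sfpq replicate 3 (-0.37) or Luc replicate 1 (-0.40), with limma adjusted p between 0.0513 and 0.0739.

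The antigen presentation genes on chromosome 17 lie side by side in the order Psmb9, Tap1, Psmb8, and of these Psmb8 and Tap1 rose while Psmb9 did not pass. Psmb8, an immunoproteasome subunit, had 29.1, 23.4 and 25.1 RPKM in Sfpq libraries, against 17.8, 17.3 and 11.8 RPKM in Luc libraries (0.72, SE 0.16, limma adjusted p = 0.00676). Tap1, of the transporter that carries peptides into the endoplasmic reticulum, had 4.65, 4.43 and 4.17 RPKM in Sfpq libraries, against 3.05, 3.71 and 2.48 RPKM in Luc libraries (0.47, SE 0.14, limma adjusted p = 0.0260). The Tap1 call ended without any 1 of the Sfpq libraries or without Luc replicate 1, with log2 fold changes of 0.44 to 0.51 and limma adjusted p between 0.0590 and 0.0831. Psmb9, another immunoproteasome subunit, had 3.18, 2.99 and 4.14 RPKM in Sfpq libraries, against 3.07, 2.34 and 3.70 RPKM in Luc libraries, which overlapped (0.16, limma adjusted p = 0.483). Psmb9 and Tap1 are transcribed away from each other, and 225 of the 250 bases in their promoter windows are the same stretch of DNA. B2m, the invariant chain of class I molecules and the most abundant member, had 256, 283 and 261 RPKM in Sfpq libraries, against 287, 295 and 376 RPKM in Luc libraries. All its Sfpq values lay below all its Luc values, but the difference did not pass (-0.25, SE 0.12, limma adjusted p = 0.131).

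**Figure D2:**
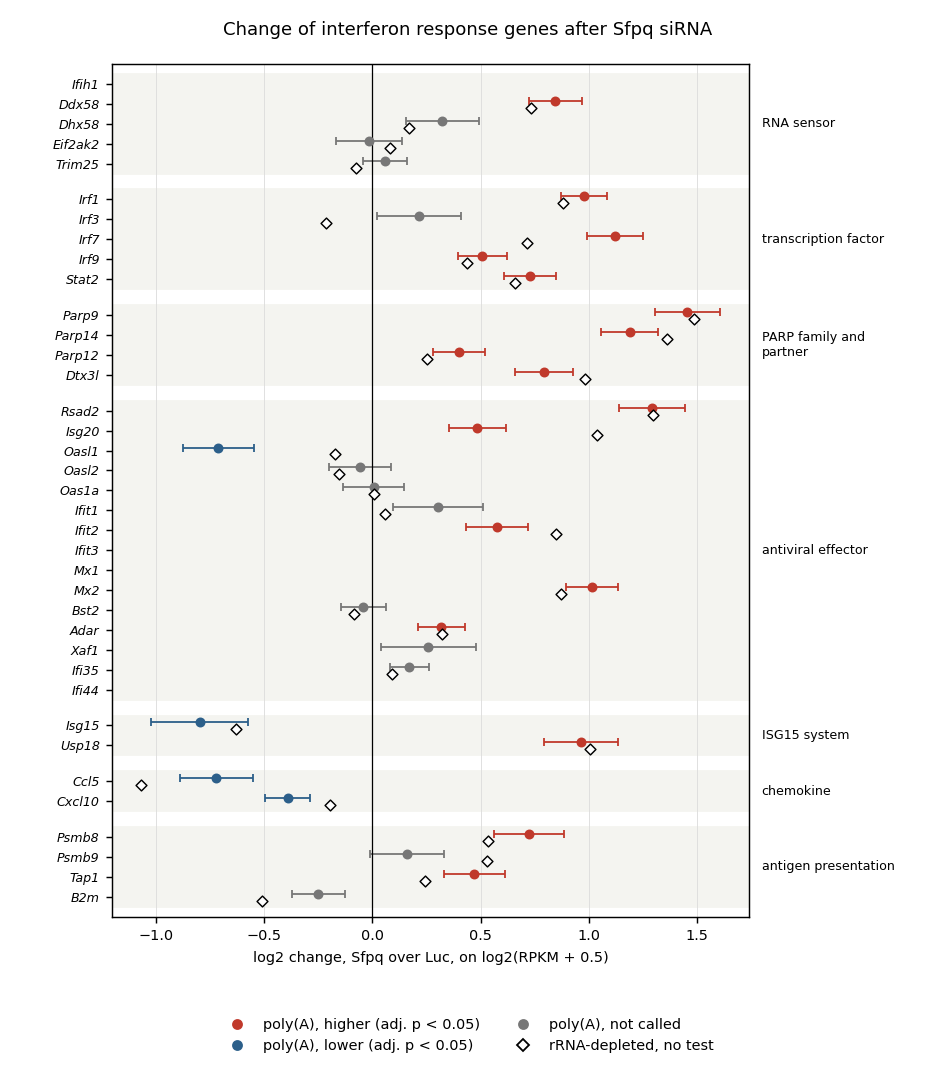
Log2 change (Sfpq over Luc, on the log2(RPKM + 0.5) scale) of each interferon response gene, with poly(A) values and SE as filled circles coloured by call, and rRNA-depleted values, which have no test, as open diamonds. The PARP group and all transcription factors except Irf3 lie right of 0 in both preparations, and Isg15, Ccl5, Cxcl10 and Oasl1 lie left of 0 in both.

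Sensors and transcription factors were next set against induced effectors. In poly(A) RNA 5 of 9 tested sensors and transcription factors were higher and 0 lower (limma), against 12 higher and 4 lower of 24 tested effectors (background 21.3% higher and 18.6% lower). Of the higher effectors, Parp14 and Ifit2 passed the filter only through their Sfpq level. At an unadjusted p under 0.05 no further sensor or transcription factor passed in either direction. The 16.7% of effectors called lower lay near that background, and whether the sets differ was not tested. Their median log2 fold changes were 0.51 for sensors and transcription factors and 0.31 for effectors, a difference of 0.20. In each poly(A) library the median level on the log2(RPKM + 0.5) scale was higher for sensors and transcription factors than for effectors. That gap was 0.47, 0.48 and 0.36 in Sfpq libraries, against 0.48, 0.55 and 0.51 in Luc libraries, so the gaps of the groups overlapped. Its mean was 0.43 in Sfpq and 0.51 in Luc libraries, opposite in direction to the difference of median log2 fold changes. No test is given for these sets, as the members were chosen with results known. The difference of the medians was 0.32 with Eif2ak2 counted as an effector, 0.11 with Adar counted as a sensor, 0.11 with no filter on low values and 0.32 with a minimum mean of 2 RPKM. Leaving Trim25 out of the sensors was not tried.

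**Figure D3:**
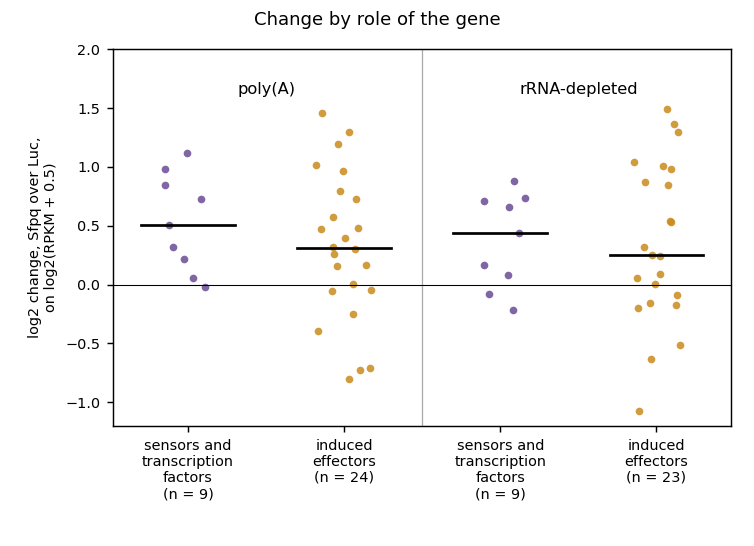
Log2 change (Sfpq over Luc, on the log2(RPKM + 0.5) scale) of sensors and transcription factors and of induced effectors, 1 point per gene, in poly(A) RNA (left) and rRNA-depleted RNA (right); lines are medians. The medians are 0.51 and 0.31 in poly(A) RNA and 0.44 and 0.25 in rRNA-depleted RNA, and the effectors spread further on both sides.

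RNA depleted of rRNA was sequenced from 1 library per group, so these differences have no replicate check and no test. Of 32 members that averaged 0.5 RPKM or more, 12 were more than 1.5-fold higher on the log2(RPKM + 0.5) scale and 2 more than 1.5-fold lower (37.5% and 6.25%, where the background was 7.86% higher and 13.3% lower). Parp14, Ifit2 and Mx2, all among the 12, reached that average only through the Sfpq library, so that they had to lie higher. Their Luc values were 0.309, 0.361 and 0.414 RPKM. With a minimum mean of 2 RPKM 5 members were past 1.5-fold higher, and 5 were higher and 1 lower past 2-fold. The background was not counted at that filter or fold, so these counts cannot be set against it. The median log2 ratio of the members was 0.29, beside -0.02 for all genes counted, and 0.17 with a minimum mean of 2 RPKM. All 17 members that were higher in poly(A) RNA had a ratio above 0 here, 12 of them past 1.5-fold, and all 4 that were lower had a ratio below 0, 2 of them past 1.5-fold. The same share was not counted over all genes called in poly(A) RNA, so whether the members stand out in this is unknown. Parp9 had 6.47 RPKM in the Sfpq library, against 1.98 RPKM in the Luc library, a 3.26-fold ratio. Parp14 had 1.58 RPKM in the Sfpq and 0.309 RPKM in the Luc library, and Rsad2 had 4.75 RPKM in the Sfpq and 1.64 RPKM in the Luc library. Among the transcription factors, Irf1 had 11.4 RPKM in the Sfpq and 5.95 RPKM in the Luc library, and Irf7 had 1.53 RPKM in the Sfpq and 0.736 RPKM in the Luc library. These 5 genes thus had ratios between 1.91 and 5.12.

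The members past 1.5-fold lower in rRNA-depleted RNA were Ccl5, with 1.14 RPKM in the Sfpq and 2.95 RPKM in the Luc library, and Isg15, with 9.03 RPKM in the Sfpq and 14.3 RPKM in the Luc library. Oasl1 (1.03 RPKM in the Sfpq and 1.23 RPKM in the Luc library) and Cxcl10 (5.23 RPKM in the Sfpq and 6.07 RPKM in the Luc library) lay closer to no difference. Isg20 was further apart here than in poly(A) RNA, with 2.08 RPKM in the Sfpq and 0.755 RPKM in the Luc library; whether the preparations differ was not tested. B2m had 131 RPKM in the Sfpq and 187 RPKM in the Luc library (log2 ratio -0.51), and Irf3 had 5.88 RPKM in the Sfpq and 6.90 RPKM in the Luc library (-0.22). Sensors and transcription factors had a median log2 ratio of 0.44 (n = 9), and effectors of 0.25 (n = 23). Their difference of 0.19 was 0.30 with Eif2ak2 counted as an effector. It was 0.06 with no filter on low values and 0.09 with a minimum mean of 2 RPKM. The gap between the median levels of these sets went the other way, at 0.39 in the Sfpq and 0.57 in the Luc library.

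The other genes of the pathway, 108 of 110 listed symbols found, were read from the same fit. Of 65 tested, 20 were higher and 6 lower (30.8% and 9.23%, where the background was 21.3% higher and 18.6% lower). The other 39 did not pass. In rRNA-depleted RNA, which has no test, 5 of 63 genes counted were more than 1.5-fold higher and 5 more than 1.5-fold lower. That is 7.94% for each, where the background was 7.86% higher and 13.3% lower. Uba7, among the higher genes in both preparations, reached each filter only through its Sfpq level. Without Sfpq replicate 2, 11 of the other pathway genes were higher in poly(A) RNA, and the background of that fit was not counted. Interferon genes themselves were at or near 0: of 10, 8, among them Ifnb1, were listed at 0 in all 8 libraries, and the other two were listed above 0 in 1 library each, at no more than 0.0808 RPKM. The type I receptor chain Ifnar1 had 9.91, 9.70 and 10.2 RPKM in Sfpq libraries, against 7.58, 7.61 and 7.61 RPKM in Luc libraries (0.36, SE 0.10, limma adjusted p = 0.0150), a small difference whose call ended without Sfpq replicate 2 (0.38) or 3 (0.35) or Luc replicate 1 (0.36), with limma adjusted p between 0.0569 and 0.0794. The other chain, Ifnar2, averaged 17.7 ± 1.22 RPKM in Sfpq and 19.4 ± 2.02 RPKM in Luc libraries (SD, n = 3 each; limma adjusted p = 0.383). Il10rb, a chain shared by the receptors for interferon lambda and interleukin 10, had 8.32, 7.52 and 8.44 RPKM in Sfpq libraries, against 19.0, 18.3 and 21.3 RPKM in Luc libraries. It fell by 1.22 on the log2 scale (SE 0.11, limma adjusted p = 3.65e-05), and its partner Ifnlr1 was below the filter.

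Of the receptor kinases, Jak2 had 6.62, 6.66 and 6.93 RPKM in Sfpq libraries, against 3.64, 3.09 and 4.32 RPKM in Luc libraries (0.80, SE 0.13, limma adjusted p = 0.00125). All its Sfpq libraries sat above all its Luc libraries. Jak1 averaged 17.8 ± 1.09 RPKM in Sfpq and 18.6 ± 1.65 RPKM in Luc libraries, and Tyk2 averaged 4.73 ± 0.235 RPKM in Sfpq and 4.05 ± 0.539 RPKM in Luc libraries (SD, n = 3 each; limma adjusted p = 0.701 for Jak1 and 0.209 for Tyk2). Upstream of interferon, neither the adaptor Mavs (7.87 ± 1.30 RPKM in Sfpq and 6.51 ± 0.504 RPKM in Luc libraries) nor the kinase Tbk1 (17.9 ± 0.202 RPKM in Sfpq and 19.8 ± 3.18 RPKM in Luc libraries; SD, n = 3 each) passed the test (limma adjusted p = 0.178 for Mavs and 0.418 for Tbk1). Traf3, the ubiquitin ligase between them, fell by 0.42 on the log2 scale (SE 0.11, limma adjusted p = 0.0153), a call that ended without Luc replicate 1 (-0.43, limma adjusted p = 0.0551).

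With no filter on low values, 13 of the 108 pathway genes were higher (background 7.82%). The other induced genes made up 39 of the 65 tested. Of these 39, 13 were higher and 4 lower (33.3% and 10.3%, background 21.3% and 18.6%). Uba7, among the 13, passed the filter only through its Sfpq level. Oas1b, another oligoadenylate synthetase gene, whose row is a noncoding transcript record, had 5.76, 6.00 and 5.74 RPKM in Sfpq libraries, against 1.37, 1.33 and 1.22 RPKM in Luc libraries (1.81, SE 0.11, limma adjusted p = 4.33e-06). Its ratio of means was 4.47, beside 4.74 for Uba7. Smaller rises on the log2(RPKM + 0.5) scale were those of Pml, the organiser of nuclear bodies (1.05), Rtp4 (0.81) and the peptide-trimming protease Erap1 (0.72), with limma adjusted p between 0.000155 and 0.00728. The calls of Rtp4, Erap1 and Pnpt1 ended with no filter on low values (limma adjusted p between 0.0521 and 0.232). Among those that fell, Lgals3bp, a secreted glycoprotein, had 9.34, 11.4 and 11.0 RPKM in Sfpq libraries, against 34.1, 37.3 and 35.7 RPKM in Luc libraries (-1.71, SE 0.11, limma adjusted p = 6.06e-06). Ccl2, a chemokine for monocytes, had 2.45, 1.41 and 1.90 RPKM in Sfpq libraries, against 7.12, 6.80 and 7.92 RPKM in Luc libraries (-1.71, SE 0.16, limma adjusted p = 6.01e-05). Ccl2, Ccl5 and Cxcl10, the chemokines in either list that were tested, were all called lower (background 18.6%). The calls of Ccl5 and Cxcl10 ended under some alternatives, as given above. The class I heavy chain H2-K1 also fell (63.0, 81.4 and 78.3 RPKM in Sfpq libraries, against 108, 112 and 125 RPKM in Luc libraries; -0.63, limma adjusted p = 0.00311). Pnpt1, an exoribonuclease of mitochondria, had 14.6, 14.5 and 14.7 RPKM in Sfpq libraries, against 19.3, 17.9 and 34.0 RPKM in Luc libraries. Its fold change of -0.63 (limma adjusted p = 0.0391) was -0.34 without Luc replicate 3, and the call ended without any 1 Sfpq library (limma adjusted p between 0.0886 and 0.107).

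**Figure D4:**
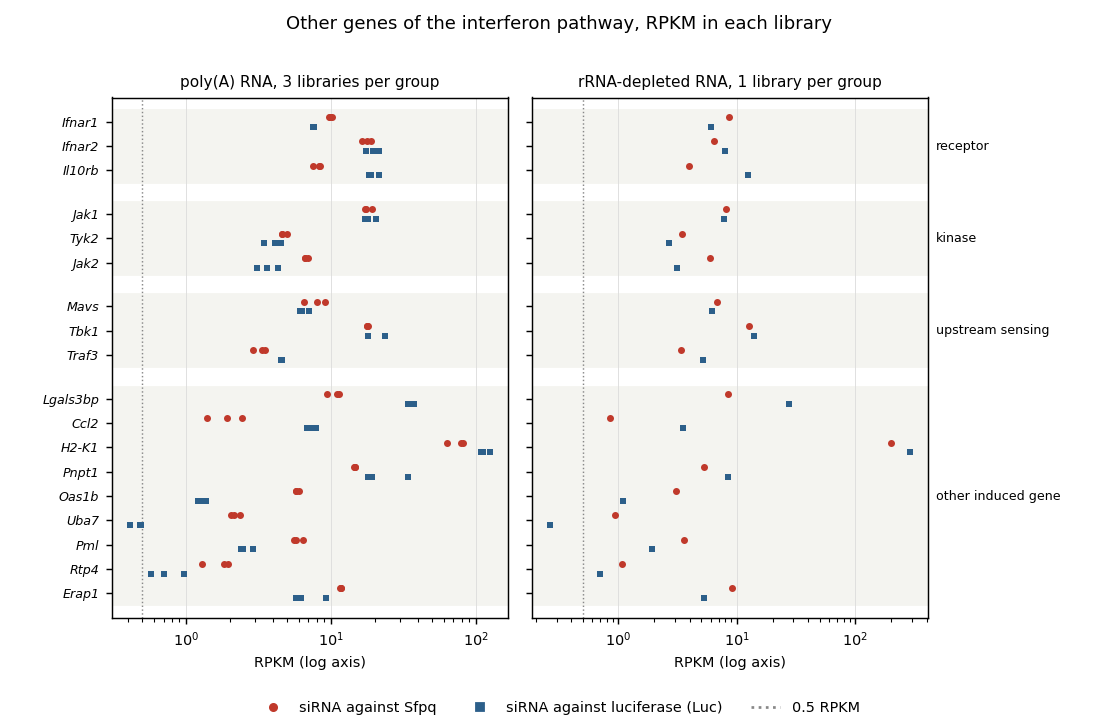
RPKM (log axis) of 18 other genes of the interferon pathway in each library, by role, with Sfpq libraries as circles and Luc libraries as squares; the dotted line marks 0.5 RPKM. Oas1b, Uba7, Pml and Jak2 lie higher in Sfpq libraries, and Lgals3bp, Ccl2 and Il10rb lower, in both preparations.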

How the data were processed

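Libraries were sequenced on an Ion Proton, per the labels' protocols. The submitters' processing notes name TopHat2 2.0.10 and mouse build mm9. The deposited values are RPKM for 30978 RefSeq transcripts in each of 8 files, per the file headers; the RPKM program, its annotation, strand and its treatment of reads with several matches are not stated in any source used here, so overlapping and near-identical genes cannot be told apart. Identifiers were named from a GRCm38.p6 table (30503 rows matched, 475 kept their identifier). RNA polymerase II immunoprecipitation is not analysed here. Replicate numbers are from the titles; 1 description gives the second Sfpq library another number.

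From RPKM, log2(RPKM + 0.5) was tested with limma 3.58.1 (R 4.3.3, trended prior, Benjamini-Hochberg adjustment) for genes averaging 0.5 RPKM or more across the poly(A) libraries, and the step was tested on simulated data. No counts are given, so precision comes from replicates alone. Members and lists were chosen with earlier results of these data known. All members were named, and of the other pathway genes 8 chosen for their role and the 6 largest called changes in each direction; 1 of the 8 is not reported here. Python 3.11.15 with pandas 2.3.3 was used otherwise. Alternatives were other pseudocounts (0.1 and 1), filters (none and 2 RPKM), quantile normalization, median-ratio scaling, a limma prior with no trend, the mean of a gene's rows, a replicate block and leaving out each library.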

Additional observations from a re-analysis of the deposited data

How the results depend on the processing

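Of the 21 called members, 9 kept their call under all 15 alternatives to the poly(A) fit (Ddx58, Dtx3l, Irf1, Irf7, Irf9, Parp9, Rsad2, Stat2 and Usp18). Another 3 kept it wherever they were tested: Parp14 and Mx2 under 14 and Ifit2 under 13, as they were below a minimum mean of 2 RPKM, and Ifit2 was also below the filter without Sfpq replicate 3. Parp14 and Ifit2 passed the main filter only through their Sfpq level, which favoured their call in the fits with that filter. The other 9 called members lost their call under at least 1 alternative, and 0 of the 21 changed sign. Leaving out 1 library gave 12 to 19 members higher, 3 to 4 lower and a median log2 fold change of 0.32 to 0.42. The difference between the medians of sensors with transcription factors and of effectors was then 0.17 to 0.24. In the rest of the pathway 11 to 27 genes were higher and 5 to 8 lower. The background was not counted for the fits with 1 library left out, so these counts cannot be set against it. With no filter on low values 1 member was lower, 13 other pathway genes were higher, and the difference of medians was 0.11 in poly(A) and 0.0608 in rRNA-depleted RNA. With a minimum mean of 2 RPKM it was 0.32 in poly(A) and 0.0925 in rRNA-depleted RNA, and in the depleted libraries 5 members were past 1.5-fold higher with a median log2 ratio of 0.17. At 2-fold, 5 members were higher and 1 lower in rRNA-depleted RNA, and with quantile normalization 1 was lower past 1.5-fold. The background was not counted for these rRNA-depleted settings. The difference of medians was 0.32 in poly(A) and 0.30 in rRNA-depleted RNA with Eif2ak2 as an effector, and 0.11 in poly(A) RNA with Adar as a sensor. The cause of these moves was not tested beyond the change in genes counted.

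Signs turned only for genes that were not called: with 1 library left out, the log2 fold change spanned -0.111 to 0.125 for Eif2ak2, -0.0390 to 0.362 for Irf3, -0.169 to 0.0644 for Oasl2, -0.0908 to 0.134 for Oas1a, -0.0998 to 0.0320 for Bst2 and -0.106 to 0.0121 for Jak1. Oas1a was at -0.0279 with median-ratio scaling and Bst2 at 0.0458 with quantile normalization. With a replicate block 17 members were higher and 4 lower, and 23 other pathway genes were higher and 6 lower. The background of that fit was not counted. Deviations of same-numbered libraries correlated at -0.04 to 0.33, and 3 of 6 libraries correlated best with their own number. The numbers were thus not taken to pair the libraries. RPKM holds no read counts, so what low values of Ifih1, Ifit3 and Ifi44 could show is limited by an unknown depth.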

Other observations

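Some genes of the pathway stayed under the filter of 0.5 RPKM, so that they were not tested, yet had Sfpq libraries wholly on one side of the Luc libraries. Oas3, the long oligoadenylate synthetase, was at 0.153 to 0.244 RPKM in Sfpq and 0.0438 to 0.0692 RPKM in Luc poly(A) libraries. Gbp3, a guanylate-binding protein gene, went the other way, with 0.291 to 0.411 RPKM in Sfpq and 0.583 to 0.650 RPKM in Luc poly(A) libraries. Both genes were chosen after their values were seen.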
